A study of Rattus norvegicus with 145 samples.

Results

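The UDP-glucuronosyltransferases (Ugt) and the cytosolic sulfotransferases (Sult) of rat liver were followed as every gene of the count tables whose symbol starts with Ugt1, Ugt2 or Ugt3, or with Sult1 to Sult6. This rule took 31 of 17337 genes, 17 Ugt and 14 Sult: 8 Ugt1a, 2 Ugt2a, 7 Ugt2b, 7 Sult1, 4 Sult2, and 1 each of Sult4, Sult5 and Sult6. No Ugt3 gene was in the tables. The livers came from 145 Wistar rats that were gavaged daily with acetamide in water or with water alone, and the left lobe was sequenced after an overnight fast. In experiment A, males of strain Hsd:WI aged 9 to 10 weeks were dosed for 7 days with 0, 30, 100, 300 and, as the highest dose, 1000 mg/kg/day (mkd). In experiment B, males and females of strain Crl:WI aged 8 to 10 weeks received 0, 300, 500, 750, 1000 or 1500 mkd for 7 or 28 days. Each group held 5 rats, and no genotype beyond the strain was given. Rats are numbered in the order of their titles within a group. In experiment A at 100, 300 and 1000 mkd this number differs from the title's own number for some or all rats. The 28-day vehicle males carry an exposure label that belongs to the other experiment, and were placed in experiment B by their titles.

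Both enzyme families make lipophilic compounds soluble enough to leave the liver. Ugt enzymes sit in the endoplasmic reticulum and attach glucuronic acid from UDP-glucuronic acid to bilirubin, steroids, bile acids and drugs, while Sult enzymes of the cytosol attach sulfate from PAPS to phenols, steroids and bile acids. The Ugt1a enzymes are read from one gene complex in which each has its own first exon and all share the remaining exons, whereas each Ugt2 enzyme has a gene of its own. In rodent liver many Sult and Ugt2b genes are expressed differently in males and females under the control of growth hormone, and Ugt1a genes respond to the xenobiotic receptors AhR, CAR, PXR and PPAR alpha.

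Reads on genes numbered 15449716 to 39986531 per rat (median 28262376), so that 3 reads, taken as the floor of detection, corresponded to 0.0750 to 0.194 CPM, the counts of a gene relative to the reads on all genes of its library. Levels are given as CPM scaled by TMM factors, one set of factors for experiment A and another for experiment B, and levels were not compared between genes because transcript lengths were not used here. A member was called where edgeR's quasi-likelihood test gave a fold change of 1.5 or more and a p, adjusted over all genes tested by the Benjamini-Hochberg method, no higher than 0.05. In 5 rats the TMM factor exceeded 1.4: rats 2, 4 and 5 at 1000 mkd in experiment A, male rat 3 at 1500 mkd for 28 days, and female rat 2 at 1500 mkd for 28 days. The summed level of 2 Y-linked genes (Eif2s3y and Ddx3y) was 32.1 to 97.5 CPM in the 85 males and 4.22 to 16.8 CPM in the 60 females, with no overlap. Ddx3y was counted in every rat of either sex, at 3.00 to 16.8 CPM, so the separation rests on Eif2s3y, which was at 0 in 42 rats. Of the 31 members, 21 were tested in all 5 data sets, 3 in some of them (Sult4a1, Sult6b1 and Ugt2b7), and 7 in none. Among these 7, Sult1c2, Ugt1a7c, Ugt1a8 and Ugt1a9 had 0 reads in every rat, while Sult1d1, Sult1e1 (the estrogen sulfotransferase) and Ugt2a1 never exceeded 0.245, 0.0829 and 0.349 CPM. In the RefSeq annotation of GRCr8 the 8 Ugt1a members share 1 gene end, and reads on their shared exons that a counter assigns to no single gene are missing from their counts. The Ugt2b genes, the Sult2a genes and the Sult1c genes are close paralogs, so the division of reads within each group is uncertain.

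Vehicle livers of the 2 sexes differed in members of both enzyme families. Each sex at each time came in its own count table. A sequencing batch between tables therefore cannot be told apart from sex, nor from time and age. Sult2a1, Sult2a2 and Sult2a6, which sulfonate dehydroepiandrosterone and bile acids, were higher in females at both times, and Sult1c3 and Ugt2b37 were lower in females at both times. At 7 days 9 of 22 members tested were called, 4 higher and 5 lower in females, where 7.98% of all genes tested were called (3.83% higher, 4.15% lower). At 28 days 7 of 22 were called, 5 higher and 2 lower, against 11.8% of all genes (6.02% higher, 5.79% lower). The median female-minus-male log2 difference of the members was -0.45 at 7 days and 0.29 at 28 days, beside a median over all genes of 0.00 and 0.01. Sult1c3, Sult2a1, Sult2a2, Sult2a6, Ugt2b10 and Ugt2b37 were called at both times. Of known sex-dependent genes, all 6 male-predominant ones (Cyp2c11 and Cyp3a2 among them) and all 5 female-predominant ones (Cyp2c12 and A1bg among them) were called in the labeled direction at both times.

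The 3 Sult2a genes lie on chromosome 1 of GRCr8, and the 250 bases before their starts are shown because the genes share so much sequence while differing in their sex difference by many fold. Sequences are from RefSeq (GRCr8), 5′ to 3′ on the gene's strand, with matches to the HNF1 core GTTAAT (either strand) in capitals.
Sult2a1, chr1:84638948-84639197, minus strand: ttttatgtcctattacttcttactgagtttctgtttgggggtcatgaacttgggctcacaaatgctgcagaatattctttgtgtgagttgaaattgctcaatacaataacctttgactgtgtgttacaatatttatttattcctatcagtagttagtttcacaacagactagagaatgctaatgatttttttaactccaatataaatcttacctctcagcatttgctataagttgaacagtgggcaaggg
Sult2a2, chr1:85104533-85104782, minus strand: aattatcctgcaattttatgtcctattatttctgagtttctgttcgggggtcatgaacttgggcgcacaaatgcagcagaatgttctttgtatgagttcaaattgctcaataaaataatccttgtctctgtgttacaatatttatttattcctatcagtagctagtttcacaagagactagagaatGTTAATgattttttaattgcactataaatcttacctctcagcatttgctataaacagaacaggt
Sult2a6, chr1:84097809-84098058, minus strand: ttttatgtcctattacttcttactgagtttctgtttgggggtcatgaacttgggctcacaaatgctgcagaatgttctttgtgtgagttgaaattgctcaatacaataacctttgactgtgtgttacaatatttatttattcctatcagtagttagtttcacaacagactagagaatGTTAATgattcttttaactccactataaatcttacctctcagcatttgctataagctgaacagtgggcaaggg
By global alignment Sult2a1 and Sult2a6 were identical at 245 of 250 positions (98.0%), while Sult2a2 was identical to Sult2a1 over 81.7% and to Sult2a6 over 83.3% of the aligned positions. GTTAAT was matched once in Sult2a2 and once in Sult2a6 and was not among these letters in Sult2a1. Of 33469 promoter windows of this length, 6.45% held it. Whether these matches bear on the level of any gene was not tested.

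Sult2a6 was read at 1002, 1277, 1597, 2022 and 2245 CPM in the 5 vehicle females of 7 days and at 60.1, 64.8, 89.0, 108 and 109 CPM in the 5 males. After 28 days the females held 1460.1, 1925, 2155, 2857 and 3232 CPM and the males 41.1, 45.5, 47.1, 71.7 and 101 CPM. The lowest female lay far above the highest male at both times, and the difference was 4.23 ± 0.32 on the log2 scale (SE; edgeR adjusted p = 6.98e-09) at 7 days and 5.25 ± 0.33 (adjusted p = 6.05e-10) at 28 days. Sult2a1 held 2363, 2856, 2944, 3028 and 3531 CPM in 7-day females and 809, 858, 1089.8, 1594 and 1922 CPM in 7-day males. At 28 days the values were 2756, 2995, 4550.1, 4656 and 5181 CPM in females and 431, 808, 912, 966 and 1075 CPM in males. The sexes did not overlap at either time, with differences of 1.23 ± 0.26 and 2.27 ± 0.27 on the log2 scale (edgeR adjusted p = 0.00301 and 4.69e-06).

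Sult2a2 gave 0.868, 1.22, 1.23, 124 and 134 CPM in 7-day vehicle females and 0.236, 0.386, 0.419, 0.445 and 0.656 CPM in males, and at 28 days 0.653, 180.3, 346, 630.2 and 697 CPM in females and 0.282, 0.464, 0.542, 0.721 and 0.739 CPM in males. Some females were near the male level and others stood more than an order of magnitude above it, so the fitted differences of 6.92 ± 1.58 and 9.40 ± 1.67 (edgeR adjusted p = 0.00587 and 0.000575) average over females of both kinds. Ugt2b10, a Ugt2b enzyme, gave 65.1, 81.4, 89.0, 114 and 135 CPM in 7-day females and 29.4, 30.0, 41.0, 42.0 and 70.1 CPM in males. At 28 days it gave 34.4, 65.5, 106, 120.1 and 126 CPM in females and 17.1, 26.4, 26.4, 32.0 and 36.9 CPM in males. At each time 4 of 5 females lay above every male, with differences of 1.19 ± 0.31 and 1.71 ± 0.31 (edgeR adjusted p = 0.0157 and 0.000814). Ugt1a2 was called at 28 days alone, 1.51 ± 0.46 higher in females (adjusted p = 0.029), at levels of 0.751 to 3.13 CPM against 0.253 to 1.12 CPM.

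On the male side, Sult1c3, a sulfotransferase of the Sult1 family, was read at 214, 216, 261, 284 and 373 CPM in 7-day males and 4.78, 7.38, 7.61, 9.69 and 10.7 CPM in 7-day females. The 28-day males held 152, 226, 231, 253 and 264 CPM and the females 3.79, 3.93, 6.72, 16.2 and 23.2 CPM. Every male exceeded every female by a wide margin, with differences of -5.08 ± 0.45 and -4.38 ± 0.43 on the log2 scale (edgeR adjusted p = 9.37e-08 and 4.13e-07). Ugt2b37 was low in both sexes, with 2.91, 7.08, 7.76, 8.05 and 10.3 CPM in 7-day males and 1.68, 2.25, 2.43, 2.64 and 2.73 CPM in females. At 28 days it held 2.79, 5.62, 5.68, 5.96 and 8.49 CPM in males and 0.490, 0.735, 1.51, 2.29 and 2.81 CPM in females. The sexes were apart at 7 days and touched in 1 female at 28 days, with differences of -1.62 ± 0.38 and -1.86 ± 0.39 (edgeR adjusted p = 0.00747 and 0.00253).

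Sult1a1, which sulfonates simple phenols, gave 324, 405, 441, 544 and 587 CPM in 7-day males and 171, 183, 189, 211 and 236 CPM in 7-day females, without overlap, a difference of -1.22 ± 0.18 (edgeR adjusted p = 0.000105). At 28 days the males held 276, 386, 433, 477 and 505 CPM, the sexes overlapped, and the difference was -0.20 ± 0.18 (adjusted p = 0.465). In 28-day vehicle females the same gene stood at 291, 312, 331, 421 and 449 CPM, all above the 7-day females, and it was the 1 member called between the times in females, at 0.87 ± 0.18 higher (adjusted p = 0.0304), where 0.784% of all genes were called. That call was lost without any 1 of 7 of the 10 rats (adjusted p up to 0.0993). In males 0 members were called between the times by edgeR, with 2 at an unadjusted p under 0.05 and 0 by DESeq2, against 0.0356% of all genes. Of the 11224 genes tested there, 1198 had an unadjusted edgeR p under 0.05. Sult1b1, which acts on thyroid hormones, held 320.1, 344, 461, 569.6 and 664 CPM in 7-day males and 151, 234, 259, 259 and 333 CPM in females, with 4 of 5 females below every male and a difference of -0.94 ± 0.24 (edgeR adjusted p = 0.0133). Ugt1a6, the form for small planar phenols, was also lower in 7-day females, at 5.88 to 9.89 CPM against 10.4 to 20.0 CPM in males (-0.88 ± 0.23, adjusted p = 0.0142). All sex calls held under every alternative analysis except that of Ugt1a2, which 6 of 15 alternatives ended (adjusted p up to 0.0813).

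**Figure D1:**
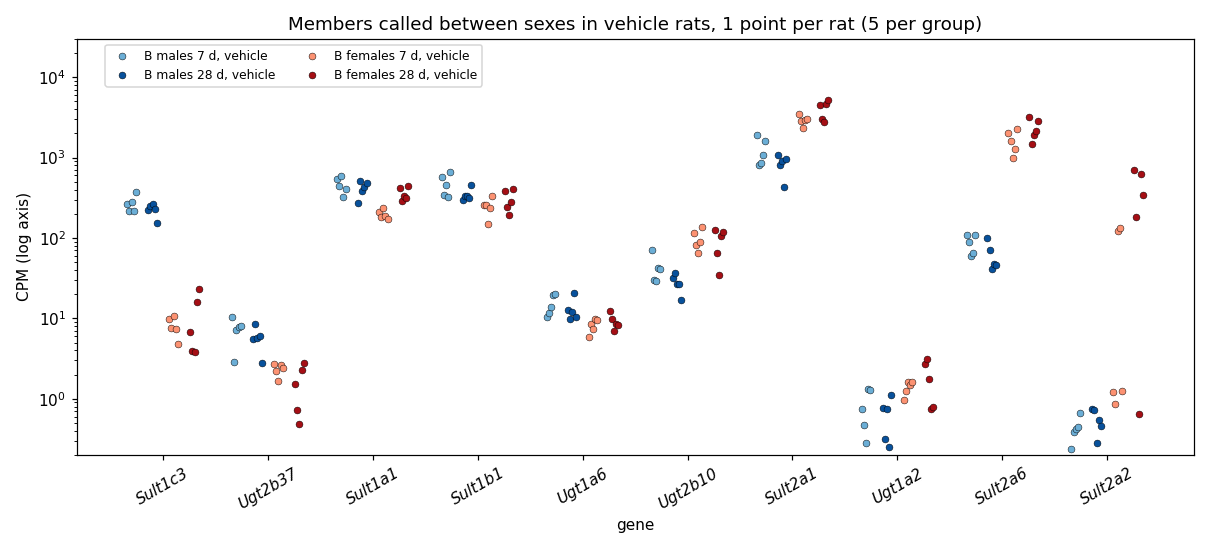
Level in CPM (log axis) of the 10 members called between sexes in vehicle rats of experiment B, 1 point per rat, with 5 rats in each of 4 groups. Sult1c3 of males and Sult2a6 of females stand clear of the other sex, while the Sult2a2 points of females split into a low and a high set.

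Ugt2b, an androsterone-glucuronidating enzyme with the RefSeq synonym Ugt2b2, was either nearly silent or abundant in each rat, in both experiments and both sexes. As background, Wistar colonies are known to hold rats with low androsterone glucuronidation. In 78 rats its level was 0.0405 to 3.48 CPM, in the other 67 rats it was 340.5 to 4343 CPM, and no rat lay in the 97.7-fold gap between. This pattern was chosen after its values were seen, and the rats on either side of the gap were counted but not compared. Measured as the widest step between neighboring rats on the scale log2(CPM + 0.1), with at least 20% of the rats on either side, this gap was the largest of 11800 genes over all 145 rats, over the 60 males and over the 60 females of experiment B. The rats above the gap numbered 12 of 25 in experiment A, 24 of 60 among the males and 31 of 60 among the females of experiment B.

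Vehicle rats stood on both sides of the gap. Ugt2b was at 0.241, 0.737, 1353, 2010.4 and 2126 CPM in the vehicle males of experiment A, at 0.445, 1.43, 1835, 1879 and 1998 CPM in 7-day males, and at 0.282, 3.48, 1081, 1169 and 1308 CPM in 28-day males. Vehicle females held 0.200, 0.760, 3.05, 549.6 and 799 CPM at 7 days and 0.367, 947, 1307, 2049 and 3091 CPM at 28 days. In all, 15 of 25 vehicle rats and 52 of 120 acetamide rats were above the gap, and at 1000 and 1500 mkd together 15 of 45 were. Group counts ran from 0 of 5 (7-day males at 500 mkd) to 5 of 5 (7-day females at 500 mkd). Fold changes of Ugt2b are therefore read beside these counts. In 28-day females at 1500 mkd, where the rats held 0.157, 0.172, 0.508, 0.701 and 699 CPM, the fitted change was -3.38 ± 2.54 (edgeR adjusted p = 0.367), and Ugt2b was called in no comparison.

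Sult2a2 showed a like split in females alone. Its level was 0.504 to 2.09 CPM in 22 females and 54.5 to 697 CPM in 38, a 26.1-fold gap that ranked second among the 11800 genes in the 60 females, behind Ugt2b, and all 85 males were at or below 4.12 CPM. The high females numbered 2 and 4 of 5 in the vehicle groups of 7 and 28 days and 32 of 50 under acetamide. The 2 splits did not follow each other: 21 females were high for both genes, 10 for Ugt2b alone, 17 for Sult2a2 alone and 12 for neither. The paralog Sult2a6 was at 442 CPM or more in all 60 females. No genotype was given for any rat.

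**Figure D2:**
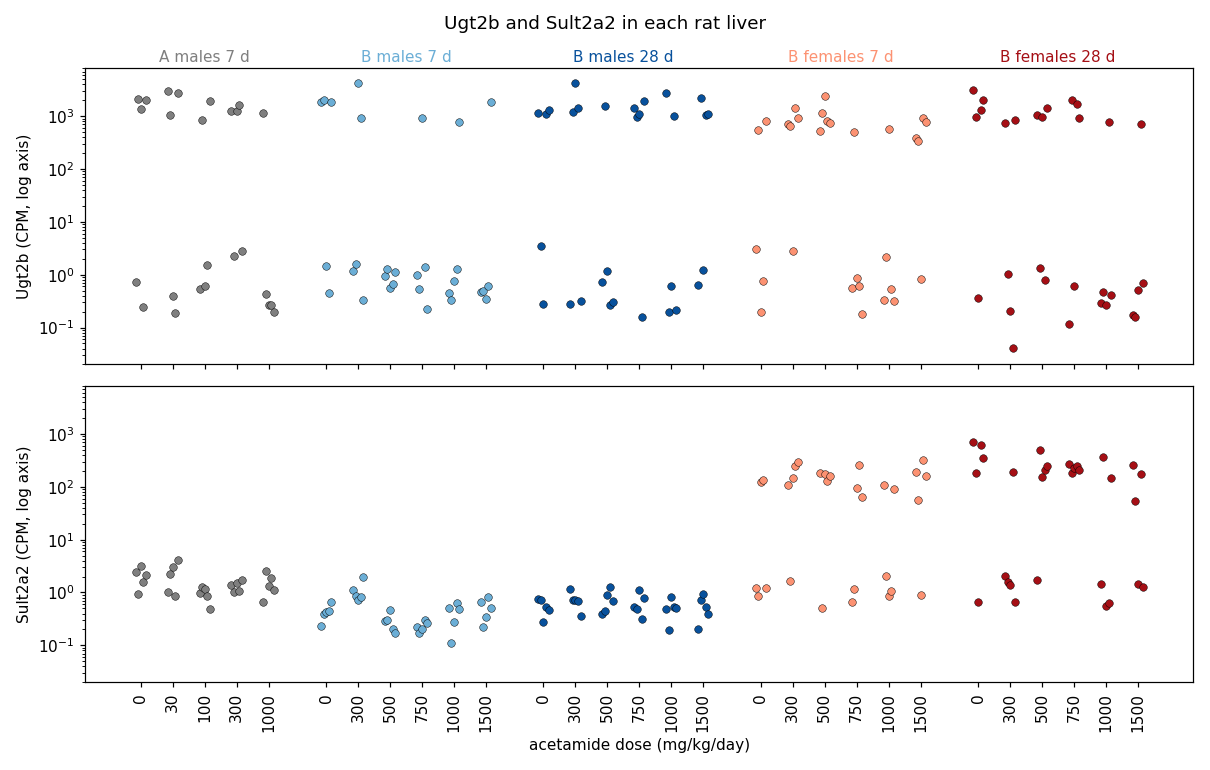
Ugt2b (top) and Sult2a2 (bottom) in CPM (log axis) for each of the 145 rats by data set and dose in mg/kg/day, 1 point per rat. Ugt2b forms 2 bands in every data set, 0.0405 to 3.48 CPM and 340.5 to 4343 CPM, and Sult2a2 forms 2 bands in females only.

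At 1000 mkd for 7 days in experiment A, 3 sulfotransferases and 3 Ugt genes were lower and 2 Ugt1a genes higher than in vehicle rats. Of 22 members tested 8 were called, 6 lower and 2 higher, where 21.4% of all 11323 genes were called (7.45% lower, 14% higher). The median change of the members was -0.61 on the log2 scale beside 0.00 for all genes, and 20 of 22 had a negative sign. At 30, 100 and 300 mkd 0 members were called by edgeR (1 at an unadjusted p under 0.05 at each dose), where 0% of all genes were called. Of all 11323 genes, 324, 232 and 218 had an unadjusted edgeR p under 0.05 at these doses. All doses of a data set were compared with the same 5 vehicle rats.

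Among the sulfotransferases, Sult2a1 held 118, 283, 291, 353 and 504 CPM at 1000 mkd and 609, 631, 861, 1323 and 1543 CPM in vehicle rats. All 5 treated rats lay below every vehicle rat, and the level fell by 1.68 ± 0.36 on the log2 scale (SE; edgeR adjusted p = 0.00177). Sult1c3 held 26.3, 65.1, 88.0, 115 and 161 CPM at 1000 mkd and 192, 193, 197, 199 and 233 CPM in vehicle rats. Again the groups were apart, and the level fell by 1.15 ± 0.28 (edgeR adjusted p = 0.00393). Its paralog Sult1c2a held 13.5, 15.7, 15.7, 30.1 and 36.3 CPM at 1000 mkd and 46.3, 49.0, 49.4, 50.2 and 53.3 CPM in vehicle rats. The 3 rats with high TMM factors were the lowest of the 5, and the level fell by 1.16 ± 0.25 (edgeR adjusted p = 0.00153).

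The Ugt1a genes moved in opposite directions. Their windows of 250 bases before the start are shown because the 3 genes share their last exons and differ in what lies before their own first exons. RefSeq (GRCr8), 5′ to 3′, capitals mark GTTAAT and the AhR core GCGTG on either strand.
Ugt1a1, chr9:96248893-96249142, plus strand: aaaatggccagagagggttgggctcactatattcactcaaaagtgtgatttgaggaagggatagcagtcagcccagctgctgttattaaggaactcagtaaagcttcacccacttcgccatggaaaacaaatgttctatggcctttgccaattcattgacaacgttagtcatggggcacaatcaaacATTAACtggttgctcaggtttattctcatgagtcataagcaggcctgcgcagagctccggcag
Ugt1a2, chr9:96238769-96239018, plus strand: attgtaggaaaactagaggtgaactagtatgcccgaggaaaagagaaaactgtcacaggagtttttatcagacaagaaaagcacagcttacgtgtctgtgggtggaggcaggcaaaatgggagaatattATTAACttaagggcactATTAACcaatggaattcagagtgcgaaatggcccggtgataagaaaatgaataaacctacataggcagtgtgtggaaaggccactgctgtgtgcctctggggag
Ugt1a6, chr9:96194768-96195017, plus strand: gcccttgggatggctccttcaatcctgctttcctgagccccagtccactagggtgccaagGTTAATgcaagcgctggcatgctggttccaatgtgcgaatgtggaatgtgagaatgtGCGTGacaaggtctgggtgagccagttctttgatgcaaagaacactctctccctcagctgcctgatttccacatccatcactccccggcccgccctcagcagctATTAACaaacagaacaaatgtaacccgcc
GTTAAT was matched once in Ugt1a1 and at 2 places each in Ugt1a2 and Ugt1a6, and GCGTG once, in Ugt1a6, where 25.9% of all promoter windows held it. Over the 27 members with a promoter in the table, 7 held GTTAAT, 5 held GCGTG, 4 the nuclear receptor core AGGTCA (14.1% of all windows), 3 the STAT5 site TTCNNNGAA (7.67%), and 0 the antioxidant response element TGACNNNGC (10.1%). A link of these motifs to the change of a gene with dose was not tested.

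Ugt1a1, the enzyme that conjugates bilirubin, held 73.0, 73.4, 86.6, 89.7 and 103 CPM at 1000 mkd and 117, 128, 160.4, 165 and 169 CPM in vehicle rats. The groups did not overlap, and the level fell by 0.79 ± 0.17 (edgeR adjusted p = 0.00194). Ugt1a2 held 0.733, 0.917, 0.935, 1.41 and 4.92 CPM at 1000 mkd and 0.120, 0.175, 0.227, 0.254 and 0.295 CPM in vehicle rats. It was near the floor in vehicle rats, with 4 to 9 reads each, while every treated rat stood higher, and it rose by 3.06 ± 0.51 (edgeR adjusted p = 0.000307). Ugt1a6 held 20.9, 21.2, 23.4, 23.7 and 26.9 CPM at 1000 mkd and 10.4, 10.7, 11.1, 14.7 and 21.3 CPM in vehicle rats. In 3 treated rats it exceeded every vehicle rat, and it rose by 0.77 ± 0.26 (edgeR adjusted p = 0.0278).

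Of the Ugt2b genes, Ugt2b15 held 344, 514, 565, 718 and 784 CPM at 1000 mkd and 673, 704, 837, 1094 and 1469 CPM in vehicle rats. The ranges overlapped in 2 treated rats, and it fell by 0.71 ± 0.25 (edgeR adjusted p = 0.0339). Ugt2b37 held 1.69, 1.70, 2.56, 3.20 and 3.81 CPM at 1000 mkd and 4.21, 4.61, 5.27, 5.37 and 8.07 CPM in vehicle rats. The groups were apart, and it fell by 1.09 ± 0.39 (edgeR adjusted p = 0.0388). Sult1c2a, Sult1c3, Sult2a1, Ugt1a1 and Ugt1a2 were called without any 1 of the 10 rats, while Ugt1a6, Ugt2b15 and Ugt2b37 were not. Without rat 2 or without rat 4 of the 1000 mkd group 5 members were called, and without the 3 rats with TMM factors above 1.4, which leaves 2 treated rats, 1 member (Ugt1a2) and 39 genes were called. In that fit the changes were nearer 0 for all 8 members: -0.54 for Sult1c3, -0.56 for Sult1c2a, -0.33 for Ugt2b15, -1.32 for Sult2a1, -0.62 for Ugt1a1, -0.98 for Ugt2b37, 0.64 for Ugt1a6 and 2.11 for Ugt1a2 (edgeR adjusted p = 0.0489 for Ugt1a2 and 0.196 to 0.701 for the others).

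A fit of the level on dose over all 25 rats of experiment A called 11 of 22 members (27.5% of all genes). Sult5a1 (-0.83 ± 0.28 per 1000 mkd), Ugt1a3 (-1.19 ± 0.39) and Ugt2b1 (-1.28 ± 0.50), which conjugates morphine, joined the 8 members called at 1000 mkd (edgeR adjusted p = 0.0172, 0.0145 and 0.0404). Without the 1000 mkd rats 0 members had a trend.

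In 28-day females of experiment B 4 sulfotransferases and 2 Ugt genes, 6 of 23 members, were called at 1500 mkd and all were lower, where 13.1% of all 11451 genes were called (3.54% lower). The members' median was -0.70 beside 0.00 for all genes, with 19 of 23 negative. Sult1c2a held 6.72, 10.3, 22.3, 25.0 and 27.1 CPM at 1500 mkd and 33.8, 36.2, 45.0, 70.4 and 84.4 CPM in vehicle rats. The groups were apart, and it fell by 1.56 ± 0.29 on the log2 scale (edgeR adjusted p = 0.000675). Sult1c3, already low in females, held 0.896, 1.18, 1.18, 1.77 and 3.40 CPM at 1500 mkd and 3.79, 3.93, 6.72, 16.2 and 23.2 CPM in vehicle rats. No treated female reached the vehicle range, and it fell by 2.67 ± 0.62 (edgeR adjusted p = 0.00378).

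Sult2a1 held 890.2, 991, 2299, 3078 and 3614 CPM at 1500 mkd and 2756, 2995, 4550.1, 4656 and 5181 CPM in vehicle rats. Rats 2 and 3 carried the 2 lowest values and 2 of the others lay within the vehicle range, and it fell by 0.88 ± 0.28 (edgeR adjusted p = 0.0265). Sult2a6 held 442, 541, 1165, 1452 and 2497 CPM at 1500 mkd and 1460.1, 1925, 2155, 2857 and 3232 CPM in vehicle rats. The same 2 rats were lowest and 1 rat lay among the vehicle rats, and it fell by 0.92 ± 0.29 (edgeR adjusted p = 0.027).

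Ugt1a1 held 57.4, 65.4, 67.8, 71.5 and 159.9 CPM at 1500 mkd and 92.2, 141, 199.8, 204 and 211 CPM in vehicle rats. In 4 of 5 treated females it was below the vehicle range, and it fell by 1.00 ± 0.29 (edgeR adjusted p = 0.0166). Ugt2b10 held 21.8, 34.4, 37.7, 40.8 and 76.2 CPM at 1500 mkd and 34.4, 65.5, 106, 120.1 and 126 CPM in vehicle rats. The ranges overlapped, with 2 vehicle rats below the highest treated rat and 3 treated rats above the lowest vehicle rat, and it fell by 1.09 ± 0.32 (edgeR adjusted p = 0.0174). Sult1c2a and Sult1c3 kept their calls in all 16 alternative analyses and the other 4 lost theirs in 5 to 7 of them. Without treated rat 2, whose TMM factor was 1.48, and likewise without vehicle rat 5, those 2 were the members called, and without treated rat 3 they were called with Ugt2b10.

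At 1000 mkd 2 of 23 members were called in these females, where 1.59% of all genes were. Sult1c3 held 0.817, 0.949, 1.81, 1.86 and 4.20 CPM, with 4 of 5 rats below the vehicle range, and fell by 2.48 ± 0.61 (edgeR adjusted p = 0.0346). Ugt2b1 held 23.3, 24.4, 55.0, 68.3 and 80.9 CPM against 32.6, 107, 179, 237 and 372 CPM in vehicle rats, with 2 rats below the vehicle range, and fell by 1.87 ± 0.44 (edgeR adjusted p = 0.029). Leaving out 1 rat ended the Sult1c3 call in 7 of 10 cases and the Ugt2b1 call in 6 of 10. At 300, 500 and 750 mkd edgeR called 0 members, with 0, 3 and 4 at an unadjusted p under 0.05, where 0%, 0.0349% and 0.183% of all genes were called. Of all 11451 genes, 400, 1301 and 1787 had an unadjusted edgeR p under 0.05 at these doses. The dose trend over the 30 rats called 7 of 23 members, all falling (16.5% of all genes). They were the 6 members called at 1500 mkd and Ugt2b1 (-1.28 ± 0.41 per 1500 mkd, edgeR adjusted p = 0.0186). The steepest was Sult1c3 at -2.94 ± 0.51 (adjusted p = 0.000103). Without the 1500 mkd rats Sult1c3, Ugt1a1 and Ugt2b10 were still called.

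In 28-day males 2 of 23 members were called at 1500 mkd, both lower, where 4.91% of all 11279 genes were called (1.76% lower), and the median change of the members, 0.06, was beside 0.07 for all genes. Ugt1a1 held 66.8, 70.1, 84.0, 139.8 and 150.3 CPM at 1500 mkd and 151, 179, 187, 198 and 267 CPM in vehicle rats. Every treated rat lay below the vehicle range, the highest of them by a narrow margin, and it fell by 0.90 ± 0.27 (edgeR adjusted p = 0.0422). Ugt2b37 held 0.886, 1.74, 2.12, 2.56 and 2.63 CPM at 1500 mkd and 2.79, 5.62, 5.68, 5.96 and 8.49 CPM in vehicle rats. These groups also did not overlap, and it fell by 1.47 ± 0.38 (edgeR adjusted p = 0.0215). Neither was called without treated rat 2 or without vehicle rat 2, and Ugt2b37 alone was called without treated rat 1 or vehicle rat 1, 3 or 4. At 300, 500, 750 and 1000 mkd edgeR called 0 members, with 0, 1, 4 and 6 at an unadjusted p under 0.05, where 0%, 0%, 0.78% and 2.76% of all genes were called. Of all 11279 genes, 638, 1542, 2582 and 2959 had an unadjusted edgeR p under 0.05 at these doses. The dose trend called 4 of 23 members, all falling (14% of all genes): Ugt2b37 (-1.55 ± 0.33 per 1500 mkd), Ugt1a1 (-1.03 ± 0.24), Sult1c3 (-0.78 ± 0.22) and Ugt2b10 (-0.77 ± 0.28), with edgeR adjusted p of 0.00212, 0.00382, 0.0122 and 0.0414.

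After 7 days in experiment B few members passed the test. In males edgeR called 0 of 23 members at every dose, with 2, 2, 4 and 5 at an unadjusted p under 0.05 at 300, 500, 750 and 1000 mkd, where 0% of all 11304 genes were called at these doses and 0.177% at 1500 mkd. Of all genes, 159, 375, 865 and 531 had an unadjusted edgeR p under 0.05 at these doses, and 1429 at 1500 mkd. At 1500 mkd 2 members had an unadjusted p under 0.05 and DESeq2 called 0, while without treated rat 5 Sult1c3 was called. Sult1c3 held 112, 135, 156, 179 and 248 CPM at 1500 mkd and 214, 216, 261, 284 and 373 CPM in vehicle rats, with a change of -0.69 ± 0.21 (edgeR adjusted p = 0.13). It was also the 1 member with a falling dose trend (2.02% of all genes), at -0.80 ± 0.18 per 1500 mkd (adjusted p = 0.0138). That trend was not called without the rats of replicate 1, 2, 3 or 4, and was called together with Ugt2b1 without those of replicate 5.

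In females of 7 days the members that passed were 2 Ugt1a genes, both higher. At 1000 mkd 1 of 22 members was called, where 1.37% of all 11497 genes were. Ugt1a2 held 2.66, 2.74, 3.17, 3.84 and 3.92 CPM at 1000 mkd and 0.969, 1.26, 1.48, 1.59 and 1.60 CPM in vehicle rats. The groups were apart, and it rose by 1.25 ± 0.28 (edgeR adjusted p = 0.0249), a call that 6 of 10 omissions of 1 rat ended. At 1500 mkd edgeR called 0 of 22 members (0.705% of all genes), with 4 at an unadjusted p under 0.05 (1688 of all genes). DESeq2 called Ugt1a2 and Ugt1a6, as did edgeR without treated rat 1 or treated rat 5. The edgeR values were 1.05 ± 0.28 for Ugt1a2 and 1.24 ± 0.35 for Ugt1a6 (adjusted p = 0.0665 and 0.0742). Ugt1a6 held 9.55, 10.8, 23.2, 23.7 and 29.8 CPM at 1500 mkd and 5.88, 7.46, 8.62, 9.50 and 9.89 CPM in vehicle rats, with 4 of 5 treated rats above every vehicle rat. At 300, 500 and 750 mkd 0 members were called, with 0, 2 and 5 at an unadjusted p under 0.05, where 0.0087%, 0.0174% and 0.0174% of all genes were called. Of all 11497 genes, 295, 741 and 1609 had an unadjusted edgeR p under 0.05 at these doses. The dose trend called Ugt1a6 (1.43 ± 0.32 per 1500 mkd) and Ugt1a2 (1.16 ± 0.27), both rising, 2 of 22 members against 4.1% of all genes (edgeR adjusted p = 0.0135 and 0.0156). Neither was called without the rats of replicate 2 or 3, and Ugt1a2 alone without those of replicate 4.

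**Figure D3:**
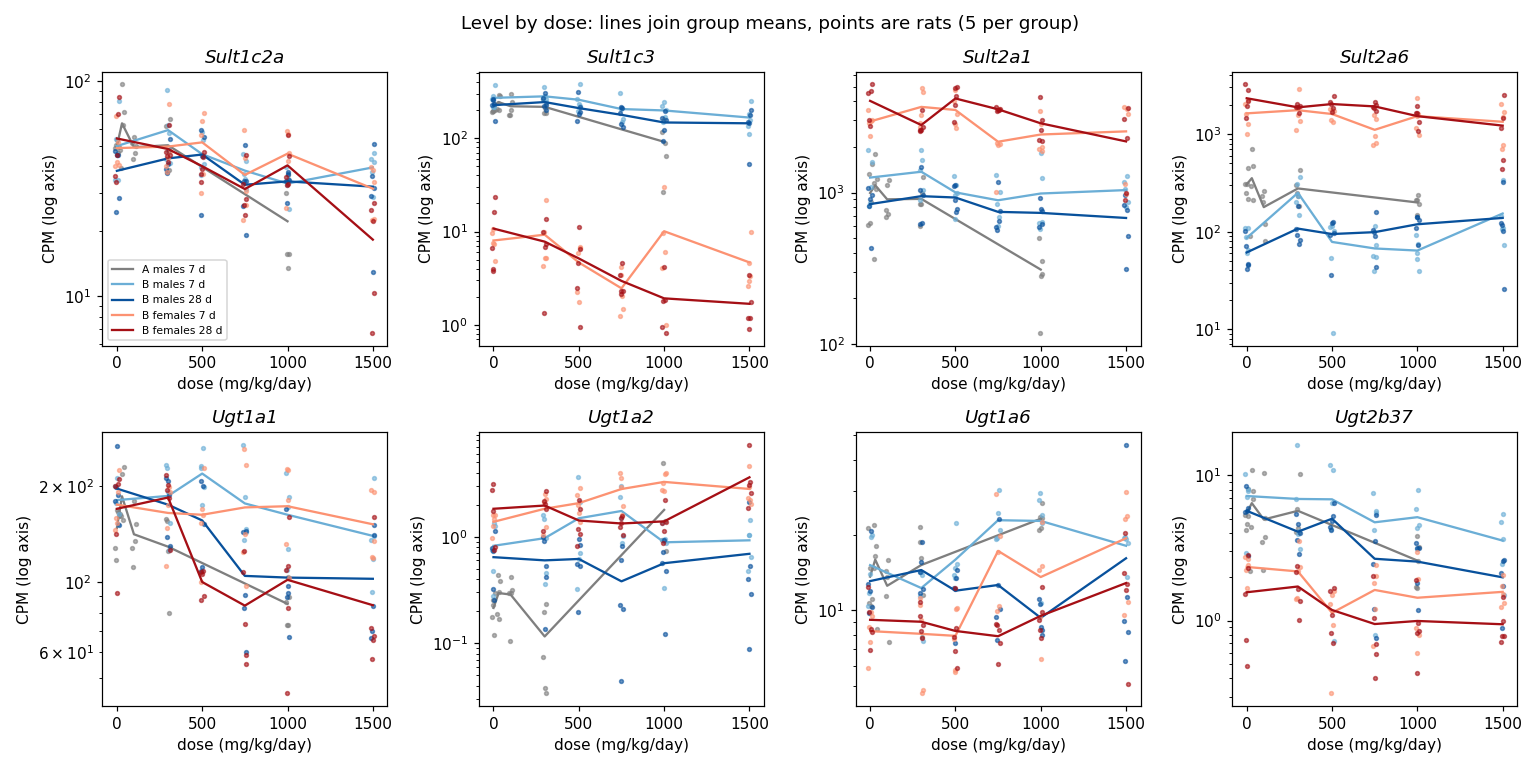
Level in CPM (log axis) by dose in mg/kg/day for 8 members called at the highest dose of a data set, where lines join the means of 5 rats and points are rats, colored by data set. Sult1c3 falls with dose in 28-day females from a vehicle mean of 10.8 to 1.69 CPM, and Ugt1a1 falls in experiment A and in both 28-day data sets.

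Across the highest doses Ugt1a1 was called in 3 data sets (experiment A, 28-day males and 28-day females), Sult1c2a, Sult1c3, Sult2a1 and Ugt2b37 in 2 each, and Ugt1a2, Ugt1a6, Ugt2b10, Ugt2b15 and Sult2a6 in 1 each. The difference between sexes in the response to 1500 mkd was tested directly. At 28 days 1 of 24 members passed (0.441% of all 11800 genes): Sult2a6, which held 25.9, 102, 116, 122 and 325 CPM in treated males against 41.1, 45.5, 47.1, 71.7 and 101 CPM in vehicle males, a change of 1.21 ± 0.43 (edgeR adjusted p = 0.0767), while it fell in females. The female-minus-male difference of the changes was -2.11 ± 0.55 (edgeR adjusted p = 0.0497). The highest treated male was rat 3, the rat with a TMM factor of 1.43, which the paper named an outlier for Ki67 labeling. The call was lost without the rats of replicate 1, 2, 3 or 4 (adjusted p up to 0.255, and a difference of -1.26 without replicate 3), with the replicate number as a block (-2.09, adjusted p = 0.0602) and with no filter on low counts (-2.11, adjusted p = 0.0528). At 7 days 0 of 24 members passed (2 at an unadjusted p under 0.05, 0 by DESeq2) and 0% of all genes did. Of all 11800 genes, 510 had an unadjusted edgeR p under 0.05 in that test.

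The duration of treatment gave no called difference in response at 1500 mkd. In males 0 of 24 members passed (0 at an unadjusted p under 0.05, 0 by DESeq2, and 0% of all genes passed). In females 0 of 24 did (7 at an unadjusted p under 0.05, 0 by DESeq2, and 0.0169% of all genes passed). Of all 11800 genes, 547 in males and 928 in females had an unadjusted edgeR p under 0.05. Between the experiments the response of 7-day males to 1000 mkd differed for 1 of 23 members, where 6.9% of all 11579 genes differed. Ugt1a2, which changed by 0.19 ± 0.55 in experiment B (0.328, 0.874, 0.931, 0.947 and 1.35 CPM against 0.279, 0.475, 0.748, 1.27 and 1.33 CPM in vehicle rats), rose 2.87 ± 0.78 more in experiment A (edgeR adjusted p = 0.0207). That call was lost without the rats of replicate 2, 4 or 5, and without those of replicate 1 Sult2a1 was called as well. The experiments differ in strain, age range and count table, which cannot be told apart here.

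**Figure D4:**
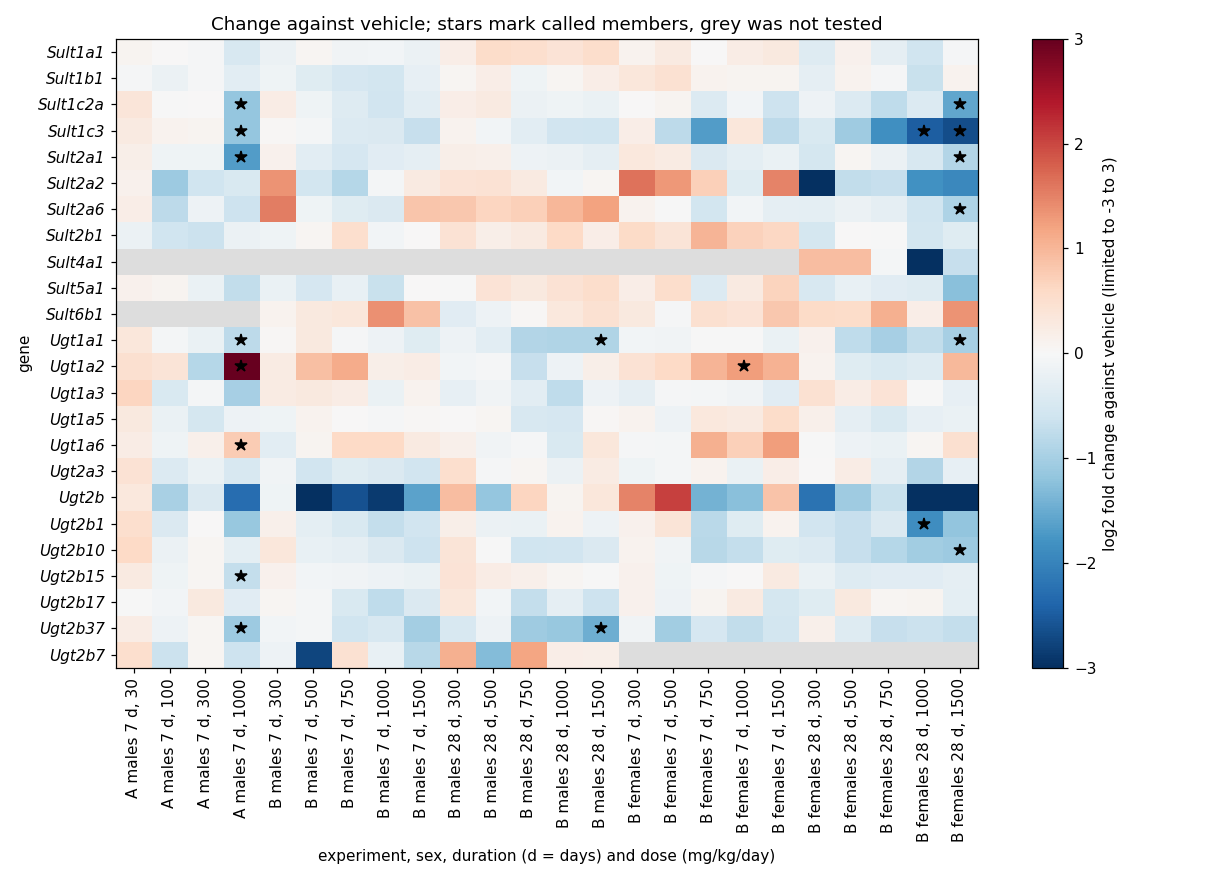
Fitted log2 fold change against vehicle (color, limited to -3 to 3) of the 24 members tested in any data set, for 24 dose comparisons, with stars on the 19 called values and gray where a member was not tested. Stars lie at 1000 and 1500 mkd only, and Ugt2b and Sult2a2, whose rats split into a low and a high set, carry strong colors without stars.

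Besides Ugt2b, 7 tested members were called in no comparison. Over the 145 rats Ugt1a5 ranged from 12.8 to 87.4 CPM and Ugt2a3 from 10.9 to 147 CPM. The other 5 were scarce: Sult2b1, the cholesterol sulfotransferase, reached 3.74 CPM, Sult4a1 3.73 CPM, Sult6b1 0.931 CPM, Ugt2b7 2.19 CPM and Ugt2b17 1.60 CPM. Their fitted changes at the highest doses lay between -0.82 and 1.36 on the log2 scale.

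Genes around the conjugation reactions were read from lists in the same fits, with medians on the log2 scale. All-gene medians were 0.00, 0.07 and 0.00 in experiment A, 28-day males and 28-day females at their highest doses. Of all genes, 14% were called higher and 7.45% lower in experiment A. In 28-day males 4.91% were called (1.76% lower), and in 28-day females 13.1% (3.54% lower). The 7-day shares in experiment B were 0.177% in males and 0.705% in females. The list and marker counts below were not tested against these shares. Of genes that supply the cofactors, 1 up and 3 down of 9 (median -0.27) were called in experiment A, 0 up and 0 down of 9 (median -0.22) in 28-day males and 0 up and 3 down of 9 (median 0.05) in 28-day females. Ugp2, which makes UDP-glucose, fell by 1.19 in experiment A and by 0.69 in the females, and the sulfate carrier Slc26a1 fell by 1.01 and by 0.70 (edgeR adjusted p from 0.00158 to 0.0305). Ugdh, which oxidizes UDP-glucose to UDP-glucuronic acid, fell by 0.68 in the females. The PAPS synthases went opposite ways in experiment A, where Papss2 fell by 0.73 and Papss1 rose by 0.65. Deconjugating Gusb and Sts were called in none of the 5 data sets at the highest dose (edgeR).

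Abcc3, which exports conjugates to the blood, rose by 1.89, 1.47 and 1.55 on the log2 scale in experiment A, 28-day males and 28-day females, and Abcc2, which exports them to bile, fell by 0.93 in 28-day males. The efflux list as a whole counted 1 up and 0 down of 4 (median -0.01), 1 up and 1 down of 4 (median -0.18) and 1 up and 0 down of 4 (median -0.29). Other conjugating enzymes counted 0 up and 5 down of 9 (median -0.74) in experiment A and 0 up and 2 down of 9 (median -0.44) in the females, and 0 up and 0 down of 9 (median 0.00) in 28-day males. Glyat, the glycine conjugase, fell by 1.24 and 1.13 in the first 2 of these, as did Baat, which conjugates bile acids (changes of -0.86 and -0.69), and Gamt and Inmt were also among those that fell in experiment A.

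Regulators of the members counted 0 up and 1 down of 14 (median -0.37) in experiment A, with the xenobiotic receptor PXR (Nr1i2) falling by 0.67, 0 up and 2 down of 14 (median -0.22) in 28-day males, with Rxra falling by 1.41 and Esr1 by 1.29, and 0 up and 0 down of 14 (median -0.24) in 28-day females. AhR targets counted 0 up and 1 down of 2 (median -0.91), 0 up and 0 down of 2 (median 1.11) and 0 up and 0 down of 2 (median 0.34) in the same order, with Cyp1a2 falling by 1.06 in experiment A. CAR and PXR targets counted 0 up and 1 down of 8 (median -0.39), 0 up and 0 down of 8 (median 0.23) and 1 up and 0 down of 8 (median 0.06), with Cyp2b3 lower in experiment A and Cyp3a62 higher in the females. NRF2 targets counted 2 up and 0 down of 6 (median 0.00), 0 up and 0 down of 6 (median -0.05) and 2 up and 1 down of 6 (median -0.31). Hmox1 and Srxn1 rose in experiment A and in the females, and Nqo1 fell in the females. PPAR alpha targets counted 1 up and 3 down of 7 (median -0.72), 1 up and 0 down of 7 (median 0.18) and 1 up and 0 down of 7 (median -0.23), where Acot1 rose in each and Cpt1a was among those that fell in experiment A. Male-predominant genes counted 0 up and 4 down of 6 (median -1.22) in experiment A and 0 up and 0 down of 6 (median -0.12) in 28-day males, and female-predominant genes 0 up and 3 down of 5 (median -0.75) in 28-day females, with Cyp2c12, Prlr and Srd5a1 falling. In the 7-day data sets of experiment B the 1 gene of these lists called at 1500 mkd was Acot1, in both sexes. Female-predominant genes, 0 up and 0 down of 5, still had a median of -0.87 in 7-day females at that dose. Their summed level was 5395 to 10466.5 CPM there against 10025 to 26134 CPM in vehicle rats, with overlapping ranges.

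Markers of cell types and of cell division moved in the same livers. In bulk tissue, fewer cells of a type and less RNA per cell cannot be told apart. Hepatocyte markers counted 0 up and 5 down of 10 (median -0.68) in experiment A, with a summed level of 76844 to 245411 CPM against 251557 to 336156 CPM in vehicle rats, 0 up and 0 down of 10 (median -0.08) in 28-day males and 1 up and 3 down of 10 (median -0.45) in 28-day females. Albumin was among those that fell in experiment A and in the females. Macrophage markers counted 7 up and 0 down of 10 (median 0.86), 0 up and 0 down of 10 (median 0.50) and 4 up and 0 down of 10 (median 0.73) in the same order, and in experiment A their summed level was 1329 to 2426 CPM against 556 to 1626 CPM in vehicle rats. T and NK cell markers counted 8 up and 0 down of 8 (median 1.55), 0 up and 0 down of 5 (median 0.59) and 1 up and 0 down of 6 (median 0.91). Cell cycle genes counted 9 up and 0 down of 10 (median 1.90), 6 up and 0 down of 10 (median 2.64) and 10 up and 0 down of 10 (median 2.76), with summed levels of 113 to 241 CPM against 35.6 to 92.2 CPM in vehicle rats in experiment A, 34.4 to 935 CPM against 34.0 to 59.9 CPM in vehicle rats in 28-day males, where the ranges overlapped, and 58.5 to 196 CPM against 37.2 to 50.2 CPM in vehicle rats in 28-day females. In the 7-day data sets of experiment B they counted 0 up and 0 down of 10 (median 1.34) in males and 2 up and 0 down of 10 (median 1.84) in females. Stellate cell markers counted 1 up and 0 down of 6 (median 0.37), 0 up and 0 down of 6 (median 0.56) and 2 up and 0 down of 6 (median 0.54), endothelial markers 2 up and 0 down of 4 (median 0.57), 0 up and 0 down of 4 (median 0.30) and 1 up and 0 down of 4 (median 0.39), and cholangiocyte markers 0 up and 0 down of 5 (median 0.23), 1 up and 0 down of 5 (median 0.77) and 1 up and 0 down of 5 (median 0.63). No B cell marker was called at the highest dose, and of the pancreatic acinar markers Cela1 was lower in experiment A and Cpa1 in the females, while Prss1 and Pnlip were at 0 in 143 and 144 of 145 rats. The part of these shifts in the changes of the members was not tested.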

How the data were processed

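Livers of 145 rats were read as raw counts per gene. The authors deposited these counts in 5 tables after TruSeq Stranded mRNA libraries had been sequenced from one end on a NextSeq 500, trimmed with Trimmomatic, aligned to the rat genome Rn6 with Bowtie2 and counted with HTSeq. Tool versions and the HTSeq mode are not given in the sources used here. Bowtie2 does not split reads over introns, so reads across exon junctions can be lost. HTSeq's summary lines, which name no gene, held 35.5% to 67.1% of all counts of a rat in experiment B (median 41.2%) and were left out.

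The counts were fitted per data set, all doses together, with edgeR 4.0.16 in R 4.3.3 (filterByExpr, TMM factors, quasi-likelihood test), and vehicle rats and interactions in joint fits. DESeq2 1.42.0 was run as an alternative. The steps were tested on simulated data. No 2 columns were identical, and 0 value columns were left unused. Groups came from the labels, and nothing says more of the 5 rats of a group than that they were separate samples. The members and lists were chosen with earlier results of these data known. Members called in any comparison were named with values, and values in every rat were given for those called at a highest dose or with the largest sex differences. List genes were named where called at a highest dose, except some that are not reported here. Counting intervals and floors cover counting error only.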

Additional observations from a re-analysis of the deposited data

Results flagged for a closer look

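Of 77 sets of 5 rats, each a member in a group of a comparison that called it or, for Ugt2b and Sult2a2, in a group of a highest-dose comparison, 6 held 1 rat far from the other 4. The cutoff of the test (Dixon's ratio above 0.71) gives about 5% by chance for independent normal values. These sets share vehicle rats, and Ugt2b and Sult2a2 were added by name although their rats split into 2 bands. The 6 therefore cannot be set against that rate. Vehicle rat 4 of experiment A had 233 CPM of Sult1c3, where the others had 192 to 199 CPM. Rat 2 at 1000 mkd in experiment A had 4.92 CPM of Ugt1a2 against 0.733 to 1.41 CPM, and it is the rat with the highest TMM factor, 1.91. Female rat 4 at 1500 mkd for 28 days had 159.9 CPM of Ugt1a1 against 57.4 to 71.5 CPM. The remaining 3 were single rats above the Ugt2b gap: rat 1 at 1000 mkd in experiment A with 1128 CPM, male rat 5 at 1500 mkd for 7 days with 1862 CPM, and female rat 4 at 1500 mkd for 28 days with 699 CPM.

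The interaction test passed for 2 members, neither under every alternative. The female-minus-male difference of the Sult2a6 change at 1500 mkd for 28 days was -2.11 on the log2 scale (edgeR adjusted p = 0.0497), a call that 6 of 9 alternatives ended, the replicate block among them (differences of -2.64 to -1.26, adjusted p from 0.0170 to 0.255). The Ugt1a2 change at 1000 mkd was 2.87 higher in experiment A than in 7-day males of experiment B (edgeR adjusted p = 0.0207), a call that 3 of 9 alternatives ended (differences of 2.26 to 3.20, adjusted p from 0.00816 to 0.185).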

How the results depend on the processing

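No call of a single member at a dose, between sexes or times, or in an interaction changed direction under any alternative. For dose trends the alternatives recorded counts of members alone, so a change of direction could not be seen. At the highest doses, 8, 0, 2, 0 and 6 members were called in experiment A, 7-day males, 28-day males, 7-day females and 28-day females. Leaving out 1 rat gave 5 to 10, 0 to 1, 0 to 3, 0 to 2 and 2 to 8. The share of all genes called under each alternative is not given in this section. Whether the counts of members move with that share cannot be read from them. With only the compared groups in the fit, 1 member was called in 28-day males and 2 in 28-day females. DESeq2 called 2 in 7-day females. Without the libraries with TMM factors above 1.4, an alternative chosen after seeing the data, 1 member was called in experiment A and 2 in 28-day females. Alternatives for members called below the highest dose were also added after seeing the data.

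Between sexes, leaving out 1 rat gave 9 to 11 members at 7 days and 6 to 8 at 28 days. Between times in females it gave 0 to 1, and DESeq2 called 2. For the sex interaction at 28 days, 0 members were called with no filter on low counts, 0 with the replicate block and 3 by DESeq2, and 0 to 1 without a replicate. For the interaction with experiment DESeq2 called 2, and leaving out a replicate gave 0 to 2. Dose trends without the highest dose called 0 members in experiment A, 0 in 7-day males and 3 in 28-day females. DESeq2 called 2 trends in 7-day males. Leaving out a replicate gave 9 to 16 trends in experiment A, 0 to 2 in 7-day males, 3 to 5 in 28-day males, 0 to 2 in 7-day females and 6 to 8 in 28-day females. Apart from settings that remove samples or genes, the cause was not tested.

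Groups share replicate numbers as used here, but no label says that a number marks a shared litter, batch or day. In experiment A the number is the order within the group, so fits by replicate match some rats of unlike title numbers. The deviations of same-numbered vehicle and highest-dose rats correlated above 0.1 in 2 to 4 of 5 numbers (r from -0.22 to 0.32). Among the 5 highest-dose rats, a vehicle rat correlated best with its own number in 2, 4, 3, 3 and 1 of 5 numbers. These are experiment A, 7-day males, 28-day males, 7-day females and 28-day females, and 1 of 5 would match by chance. A shared structure behind the numbers was not tested further than by the replicate block. With the replicate block 8, 0, 2, 0 and 6 members were called at the highest doses, 11 and 7 between sexes, and 11, 1, 4, 2 and 7 trends. Levels per length were not run, since the tables used give no transcript lengths. Depth limits the scarce members most, Ugt1a2 in experiment A among them.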
